A study of Saccharomyces cerevisiae with 6 samples.

Results

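Hsp90 is the chaperone that cells use for the late folding and activation of kinases, transcription factors and other client proteins, and budding yeast makes it from HSC82, known as the constitutive gene, and HSP82, known as the heat-inducible gene. Hsp90 works as a dimer whose ATP cycle is driven and paced by co-chaperones: Sti1 passes clients on from Hsp70, Aha1 and Hch1 speed up ATP hydrolysis, Cpr6 and Cpr7 are peptidyl-prolyl isomerases that dock on the C-terminal end of Hsp90, Cdc37 brings in kinases, Sba1 holds the closed ATP-bound form, and Cns1 is an essential partner that binds through the same kind of domain as Sti1. Transcription of many chaperone genes in yeast is driven by Hsf1, which binds heat shock elements, and in part by Msn2 and Msn4, which bind stress response elements. The genes described here are those 10, taken by their identifiers out of a count table of 6461 genes: HSC82 (YMR186W), HSP82 (YPL240C), STI1 (YOR027W), AHA1 (YDR214W), HCH1 (YNL281W), CPR6 (YLR216C), CPR7 (YJR032W), CDC37 (YDR168W), SBA1 (YKL117W) and CNS1 (YBR155W). The rule that names them uses no measured value, but they were chosen with earlier results of these data known. All 10 passed the filter on low counts.

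Total RNA was measured by 3′-Tag-seq, a method that sequences the stretch of an mRNA just before its poly(A) tail, in 6 libraries of Saccharomyces cerevisiae, 2 biological replicates at each of 3 temperatures. All cells had the strain background BY4741/2 and the genotype CBP80-PPX-PrA, SNAPf-YRA1, which puts a protein A tag on the cap-binding protein Cbp80 and a SNAP tag on the export factor Yra1, so no untagged cells were compared. The 25°C and 30°C cultures grew in YPD at that temperature, whereas the 37°C cultures grew at 25°C, were mixed with the same volume of warm medium, stood 15 min in a water bath and were then shaken, for 2 h at 37°C in all. Fresh medium and heat came together at 37°C and cannot be told apart. Genes received 184456 counts in the first 25°C library and 694502 to 1006632 in each of the other 5, so that 3 counts are 17.6 CPM (counts scaled to a common library size with TMM factors) in the first 25°C library and 2.81 to 4.25 CPM elsewhere. That library also stood apart in profile: its log2 CPM over the genes tested correlated at 0.716 to 0.862 with the others, which correlated at 0.904 to 0.974 among themselves, and every comparison with 25°C rests on it in part. Ribosomal protein genes took 9.63% and 17.2% of the counts at 25°C, 22.2% and 13.4% at 30°C, then 11.4% and 12.1% at 37°C. Of the auxotrophic markers of the background, URA3 and MET17 were at 0 counts and LYS2 and LEU2 at most at 2 in every library, and HIS3 was not examined here. The 10 genes together held 0.845% to 1.16% of the counts of a library.

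After 2 h at 37°C, transcripts of HSP82 and of the ATPase activator gene AHA1 stood at 2.20 and 2.49 times their mean level at 25°C and at 2.19 and 2.26 times that at 30°C, and those of STI1 at 1.71 and 1.69 times. HSC82 and SBA1, by contrast, were at 0.641 and 0.592 times their 25°C means, while the summed level of the Hsp90 genes was 1.02 times, and that of the 8 co-chaperone genes 0.985 times, the sum at 25°C. SBA1 was the largest single part of the co-chaperone sum, so a near-constant sum does not mean that each gene held its level. Both sums also depended on scaling. On library totals alone their log2 ratios to 25°C were 0.27 and 0.23, with the median log2 fold change of all genes at 0.33. None of these differences in single genes passed the test for which both a log2 fold change (log2FC) beyond 1 and an adjusted p under 0.05 were required, in edgeR, DESeq2 or limma-voom. edgeR called 0% of all genes as well, and limma-voom called none. DESeq2 called 4.58% of the 1156 genes to which it gave an adjusted p against 25°C. Against 30°C it called 0.282% of 5320 such genes. Growth at 30°C instead of 25°C left the libraries of all 10 genes overlapping. Of all genes, 13.1% lay wholly higher and 10.4% wholly lower at 30°C. Levels are relative to the whole library of a culture, so that fewer cells with a transcript and less of it per cell cannot be told apart.

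**Figure D1:**
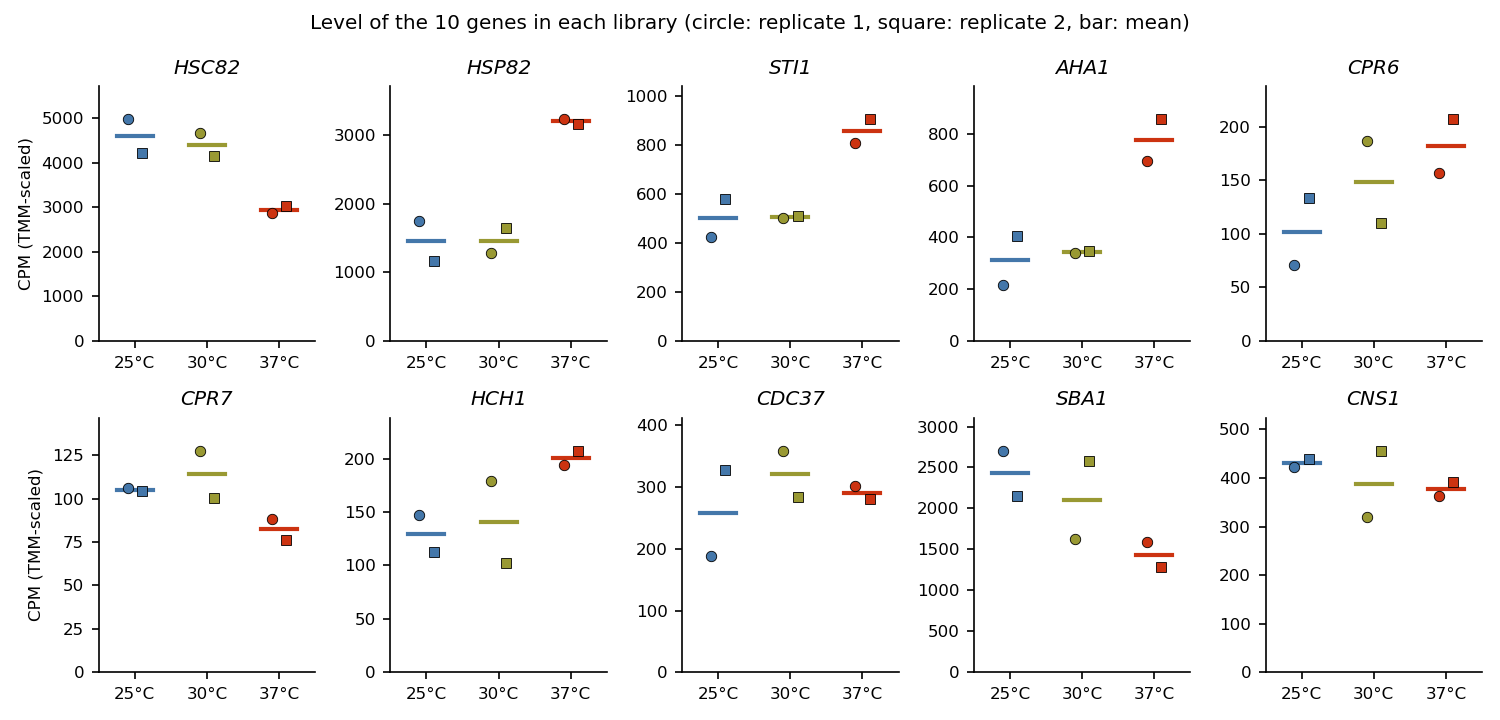
Level of each of the 10 genes, in TMM-scaled CPM on axes that start at 0, in the 6 libraries by temperature (circle: replicate 1, square: replicate 2, bar: mean of 2). The 37°C points of HSP82, STI1, AHA1 and HCH1 lie above all other points of their panels, and those of HSC82, CPR7 and SBA1 lie below. Of all genes tested, 29.4% lay wholly above and 23.2% wholly below against 25°C, and 24.3% and 20.2% against 30°C. The share apart from both temperatures at once was not computed.

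HSC82 lies on the forward strand at chrXIII:632355-634472 of build R64 and HSP82 on the reverse strand at chrXVI:96496-98625, each a single coding exon, of 2118 and 2130 bases. Their coding sequences are 92.4% identical over the aligned bases and their proteins 97.7% over the aligned residues (705 and 709 residues), so reads can be assigned to a gene only where the sequences differ. Of all 50-base windows of the coding sequence, 6.43% in HSC82 and 6.39% in HSP82 occur in more than 1 place in the nuclear genome, and at 100 bases 0.693% and 0.689%. Within the last 300 coding bases, nearest to the poly(A) tail, 0 of 251 windows of 50 bases were repeated in either gene, and the coding sequences of the 8 co-chaperone genes held no repeated window at all. The last 120 coding bases are shown because they are the counted stretch nearest to where 3′-Tag-seq reads begin and because they tell the paralogs apart. Sequences run 5′ to 3′ from the R64 genome of RefSeq, with the 12 bases that differ in capitals. They lie at chrXIII:634353-634472 on the forward strand and at chrXVI:96496-96615 on the reverse strand.
HSC82: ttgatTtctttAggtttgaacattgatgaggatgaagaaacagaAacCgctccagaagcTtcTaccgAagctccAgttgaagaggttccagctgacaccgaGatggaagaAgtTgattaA
HSP82: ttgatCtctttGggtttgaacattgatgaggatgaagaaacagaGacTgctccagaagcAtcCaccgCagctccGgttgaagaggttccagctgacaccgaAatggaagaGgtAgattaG
The differences lie on both sides of a long shared run near the start of the stretch. In the 200 bases after the stop codons, 68.4% of the aligned bases were identical, with 96 gap bases. The annotated genes end at the stop codon, so reads that fall wholly in a 3′ UTR are not in these counts.

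**Figure D2:**
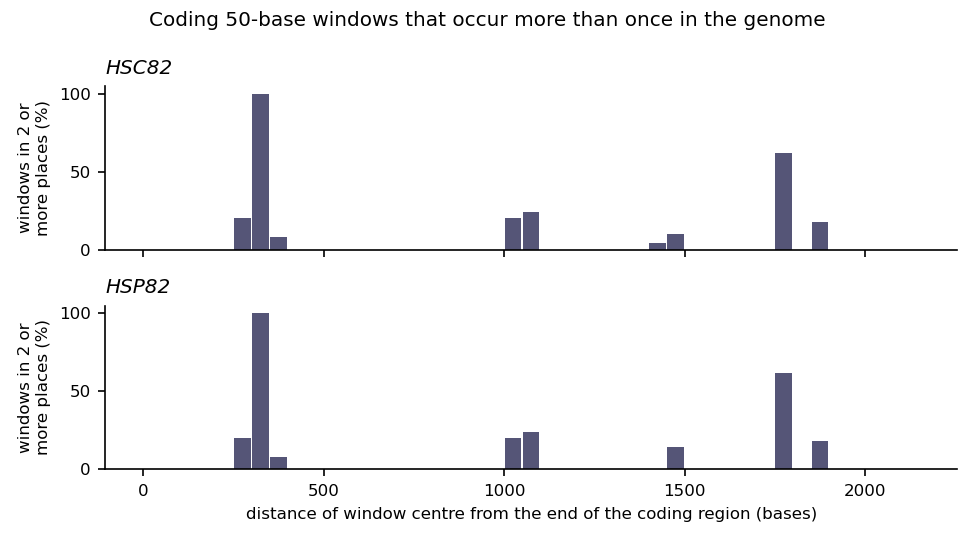
Share (%) of 50-base coding windows of HSC82 and HSP82 that occur in 2 or more places in the genome, in bins of 50 bases by distance of the window centre from the end of the coding region. The windows nearest to the end are all unique, and the highest bar, 100%, lies 300 to 350 bases from it in both genes.

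HSC82 received 4979 and 4231 CPM at 25°C, 4664 and 4143 at 30°C, then 2879 and 3024 at 37°C (847, 3574, 4135, 2926, 2701 and 3224 counts). Both 37°C libraries were below the other 4, and the 25°C and 30°C libraries overlapped. Its log2FC was −0.64 (SE 0.41, 95% interval −1.60 to 0.31, edgeR adjusted p = 0.522) at 37°C against 25°C and −0.58 (SE 0.41) against 30°C.

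HSP82 received 1746 and 1167 CPM at 25°C, 1279 and 1648 at 30°C, then 3237 and 3174 at 37°C (297, 986, 1134, 1164, 3037 and 3384 counts). The 37°C libraries lay close together and above the other 4, among which those of 25°C and 30°C interleaved. Its log2FC was 1.14 (SE 0.41, 95% interval 0.17 to 2.11, edgeR adjusted p = 0.338) against 25°C and 1.13 (SE 0.41, 95% interval 0.16 to 2.10, edgeR adjusted p = 0.653) against 30°C. DESeq2 gave HSP82 an adjusted p of 0.111 against 25°C. The log2FC between 30°C and 25°C was 0.0097 (SE 0.41), and it was slightly below 0 under DESeq2 size factors and upper quartile factors.

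The share of HSP82 among the counts of both Hsp90 genes compares the paralogs within a library and so does not depend on how libraries are scaled. It was 26.0% (exact 95% binomial interval 23.4 to 28.6) and 21.6% (20.4 to 22.8) at 25°C and 21.5% (20.4 to 22.7) and 28.5% (27.1 to 29.9) at 30°C. At 37°C it was 52.9% (51.6 to 54.2) and 51.2% (49.998 to 52.4), the latter an interval that includes 50%. HSP82 thus had fewer counts than HSC82 in all 4 libraries at 25°C and 30°C and more in both at 37°C. Reads wholly in a 3′ UTR were not counted. The share is therefore read across libraries and not as levels of the 2 genes against each other. The intervals cover counting error only. The mean share was 23.8% ± 3.07 (SD, n = 2) at 25°C, 25.0% ± 4.91 at 30°C and 52.1% ± 1.21 at 37°C. It differed by 28.3 percentage points between 37°C and 25°C and by 27.1 between 37°C and 30°C, with an exact two-sided permutation p = 0.33 for each, the smallest that 2 against 2 libraries can give. Between 30°C and 25°C the difference was 1.2 points (exact permutation p = 1).

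**Figure D3:**
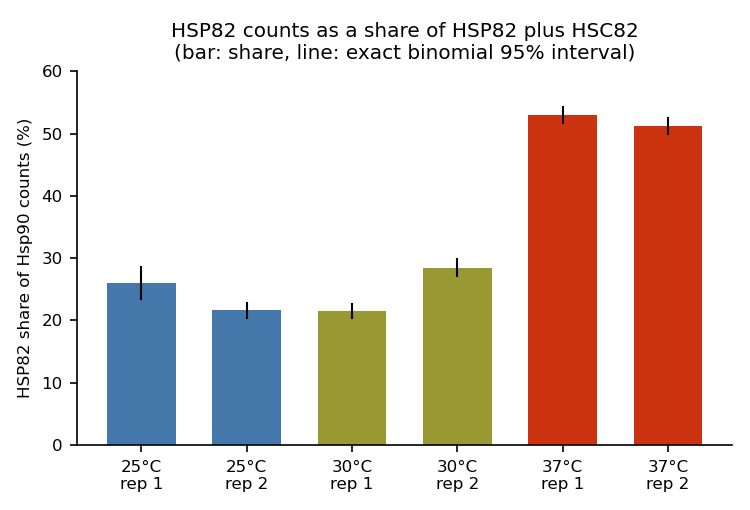
HSP82 counts as a share (%) of HSP82 plus HSC82 counts in each of the 6 libraries (bar: share, line: exact 95% binomial interval, axis from 0). The 4 libraries at 25°C and 30°C sit between 21.5% and 28.5%, and the 37°C libraries at 52.9% and 51.2%.

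Summed over both genes, Hsp90 transcripts received 6725 and 5398 CPM at 25°C, 5943 and 5791 at 30°C, then 6115 and 6197 at 37°C. The 37°C libraries fell between the 25°C libraries. The mean at 37°C, 6156 ± 57.9 CPM (SD, n = 2), was 1.02 times that at 25°C, 6062 ± 939 CPM, and 1.05 times that at 30°C, 5867 ± 108 CPM. The log2 ratio of 0.022 to 25°C became 0.27 when libraries were scaled on their totals alone, a scaling that moved the median log2FC of all genes from 0.088 to 0.33.

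The promoters were searched for heat shock elements because Hsf1 binds them. Its element is built of GAA units in alternate orientation, and the search took 2 units, GAANNTTC or TTCNNGAA, in the 500 bases before the start codon, both of which read the same on either strand. A match was present in 35.2% of the 6000 promoters searched and in 8 of the 10 genes, all but CPR7 and CNS1. Overlapping matches that make 3 units in a row were in 1.48% of all promoters (89) and in those of STI1 and AHA1. The stress response element AGGGG, read on either strand as AGGGG or CCCCT, was in 34.1% of promoters and in those of HSP82, with 2 matches, and SBA1, with 1. The matches with 3 units, and those that read TTCTAGAA in 4 further promoters, are shown with 8 bases on each side, units in capitals, on the strand of the gene and numbered on R64.
STI1 (chrXV:380803-380831, forward): ctgatatcTTCgtGAAgaTTCgtgtagta
STI1 (chrXV:380829-380857, forward): gtatgataGAAcaTTCcaGAAaaaaaatt
AHA1 (chrIV:892566-892594, forward): tcacaatgGAAttTTCtaGAAgaaaaaac
HSC82 (chrXIII:632130-632153, forward): acttttctTTCtaGAAggtgaaag
HSP82 (chrXVI:98845-98868, reverse): tcttttttTTCtaGAAcgccgtgg
CPR6 (chrXII:573334-573357, reverse): ctatgagcTTCtaGAAtatttttc
HCH1 (chrXIV:108293-108316, forward): gcctatttTTCtaGAAgacagaag
HSC82 and HSP82 thus hold the same 8 letters, 217 and 235 bases before the start codon. The share of all promoters with TTCTAGAA was not computed, and the other 2-unit matches of the 10 genes are not shown. A match says only that the letters are there.

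STI1 encodes the adaptor that bridges Hsp70 and Hsp90 (chrXV:381053-382822, forward, 1 coding exon). It received 423.3 and 580.0 CPM at 25°C, 504.2 and 511.2 at 30°C, then 807.8 and 905.9 at 37°C (72, 490, 447, 361, 758 and 966 counts). The 37°C libraries were above all 4 others. Its log2FC was 0.77 (SE 0.34, 95% interval −0.043 to 1.57, edgeR adjusted p = 0.382) against 25°C and 0.76 (SE 0.34) against 30°C.

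AHA1 encodes the main activator of the Hsp90 ATPase (chrIV:892875-893927, forward, 1 coding exon). It received 217.5 and 406.0 CPM at 25°C, 340.7 and 348.3 at 30°C, then 697.0 and 857.2 at 37°C, where the first 25°C value rests on 37 counts and the others on 246 to 914. The 37°C libraries again lay above the other 4, and the lowest value was in the shallow first 25°C library. Its log2FC was 1.29 (SE 0.39, 95% interval 0.37 to 2.22, edgeR adjusted p = 0.288, DESeq2 adjusted p = 0.0862) against 25°C. Against 30°C it was 1.17 (SE 0.39, 95% interval 0.25 to 2.09, edgeR adjusted p = 0.619). When the first 25°C replicate was left out the log2FC to 25°C was 0.90, and with the second left out it was 1.80, with an edgeR adjusted p = 0.0459 in a fit that called 364 genes in all.

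HCH1 encodes the small protein related to the N-terminal part of Aha1 (chrXIV:108467-108928, forward, 1 coding exon). It received 147.0 and 112.5 CPM at 25°C, 179.4 and 102.0 at 30°C, then 194.0 and 207.3 at 37°C (25, 95, 159, 72, 182 and 221 counts). The 37°C libraries were the highest, followed by the first 30°C library, which was far above its own replicate. The log2FC was 0.66 (SE 0.37, 95% interval −0.21 to 1.53) against 25°C and 0.51 (SE 0.35) against 30°C, where it was 0.95 with the first 30°C library left out and 0.16 with the second left out.

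The cyclophilin genes CPR6 (chrXII:572096-573211, reverse) and CPR7 (chrX:491081-492262, forward) had few counts, 12 to 221 and 18 to 113 per library. CPR6 received 70.5 and 133.8 CPM at 25°C, 187.3 and 110.4 at 30°C, then 156.7 and 207.3 at 37°C. CPR7 received 105.8 and 104.2 CPM at 25°C, 127.5 and 100.5 at 30°C, then 88.5 and 76.0 at 37°C. The 37°C libraries of CPR6 were above those of 25°C but overlapped those of 30°C, while those of CPR7 were below all others. The log2FC against 25°C was 0.76 for CPR6 (SE 0.42, 95% interval −0.24 to 1.75) and −0.35 for CPR7 (SE 0.31, 95% interval −1.08 to 0.38). Leaving out the first or the second 25°C replicate put that of CPR6 at 0.41 or 1.33. There were 0.667 and 1.28 CPR6 counts per CPR7 count at 25°C, 1.47 and 1.10 at 30°C, then 1.77 and 2.73 at 37°C.

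SBA1, which encodes the yeast p23 (chrXI:220324-220974, forward, 1 coding exon), received 2704 and 2156 CPM at 25°C, 1633 and 2577 at 30°C, then 1590 and 1286 at 37°C (460, 1821, 1448, 1820, 1492 and 1371 counts). The 37°C libraries were the lowest, but the first 30°C library was only just above the nearer of them and far from its own replicate. The log2FC was −0.76 (SE 0.42, 95% interval −1.75 to 0.24, edgeR adjusted p = 0.471) against 25°C and −0.55 (SE 0.42) against 30°C. Leaving out the first or the second 30°C library put the latter value at −0.87 or −0.19.

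CDC37 and CNS1, the essential genes among the co-chaperones, had the log2FC nearest to 0 at 37°C. CDC37 (chrIV:790328-791848, forward), the kinase co-chaperone gene, received 188.1 and 327.9 CPM at 25°C, 358.7 and 283.2 at 30°C, then 301.6 and 280.4 at 37°C. CNS1 (chrII:549771-550928, forward) received 423.3 and 439.2, 320.4 and 455.9, and 362.4 and 391.1 CPM in the same order. The libraries of CDC37 overlapped in every comparison, and those of CNS1 overlapped except that both 37°C libraries were below both 25°C libraries. Against 25°C the log2FC of CDC37 was 0.15 (SE 0.36, 95% interval −0.70 to 0.99), and −0.20 without the first 25°C replicate, where CDC37 had 32 counts. That of CNS1 was −0.20 (SE 0.33, 95% interval −0.96 to 0.57), and 0.053 when libraries were scaled on their totals alone. Against 30°C the values were −0.14 (SE 0.36) for CDC37 and −0.042 (SE 0.32) for CNS1, and both were above 0 under that scaling, that of CNS1 also under upper quartile factors.

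**Figure D4:**
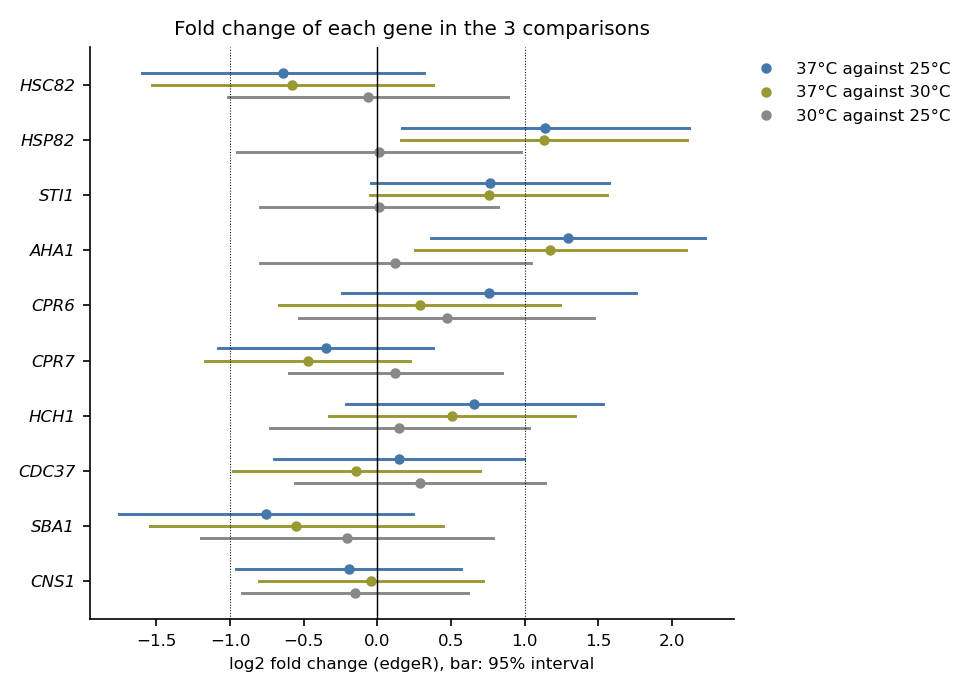
Log2 fold change (edgeR) of each gene, with its 95% interval as a line, at 37°C against 25°C (blue), 37°C against 30°C (olive) and 30°C against 25°C (grey), with dotted lines at −1 and 1. The points of HSP82 and AHA1 lie above 1 in both comparisons with 37°C, where their intervals stay above 0, and all grey intervals span 0.

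At 37°C against 25°C, 6 of the 10 genes had a positive log2FC and 4 a negative, with a median of 0.40 against 0.088 over the 5181 genes tested. edgeR and limma-voom called 0 of the 10, as they called 0% of all genes, and edgeR adjusted p of the 10 ran from 0.288 to 0.879. DESeq2 called none of the 7 to which it gave an adjusted p, against 4.58% of the 1156 genes with such a value. At an unadjusted edgeR p below 0.05 there were 2 higher, AHA1 and HSP82, and 0 lower, where the shares of all genes were 7.53% and 6.02%. The 37°C libraries lay wholly above those of 25°C in 5 of the 10 and wholly below in 4, where the shares of all genes were 29.4% and 23.2%.

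At 37°C against 30°C, 5 were positive and 5 negative, with a median of 0.12 against −0.012 for all genes. edgeR called 0 of the 10 and 0% of all genes, DESeq2 called 0 of the 10 and 0.282% of all genes with an adjusted p, and limma-voom called none. The unadjusted p was again under 0.05 for AHA1 and HSP82, so for 2 on the higher and 0 on the lower side, beside 4.65% and 2.41% of all genes. Libraries did not overlap for 4 higher and 3 lower, beside 24.3% and 20.2%. The comparisons with 25°C and with 30°C share the 37°C libraries and are not independent of each other.

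At 30°C against 25°C, log2FC ran from −0.21 (SBA1) to 0.47 (CPR6), with 7 positive and 3 negative and a median of 0.066 against 0.076 for all genes. edgeR and DESeq2 called 0 of the 10 and 0% of all genes, and limma-voom called 0 genes. None had an unadjusted p below 0.05, beside 1.1% of all genes higher and 0.309% lower, and none had libraries without overlap, beside 13.1% higher and 10.4% lower.

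The counts at an unadjusted p below 0.05 depended on single libraries and on scaling and filter. Against 25°C, AHA1 and HSP82 were both counted without the first 25°C replicate, when 6.34% of all genes were higher at that p. Without the second, AHA1, CPR6 and STI1 were counted, but so were 17.7% of all genes on the higher side. AHA1 alone was counted without the first 37°C replicate and none without the second, beside 3.82% and 3.04% of all genes. On library totals alone 5 were counted (AHA1, CPR6, HCH1, STI1 and HSP82), beside 12.3% of all genes, and with at least 10 counts in every library 4 (AHA1, HCH1, STI1 and HSP82), beside 7.7%. Against 30°C, neither AHA1 nor HSP82 held that p when any 30°C or 37°C library was left out, which leaves a single library at that temperature. Over leaving out each library, their log2FC against 30°C ran from 1.02 to 1.32 for AHA1 and from 0.93 to 1.32 for HSP82. The direction at 37°C against 25°C was the same in all 17 alternative settings for HSC82, HSP82, STI1, AHA1, HCH1, CPR6, CPR7 and SBA1. These settings include reads recovered from the authors' normalized values, which equal the main counts and could not differ. Over leaving out each library, log2FC ran from 0.84 to 1.43 for HSP82 and from −0.79 to −0.55 for HSC82.

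**Figure D5:**
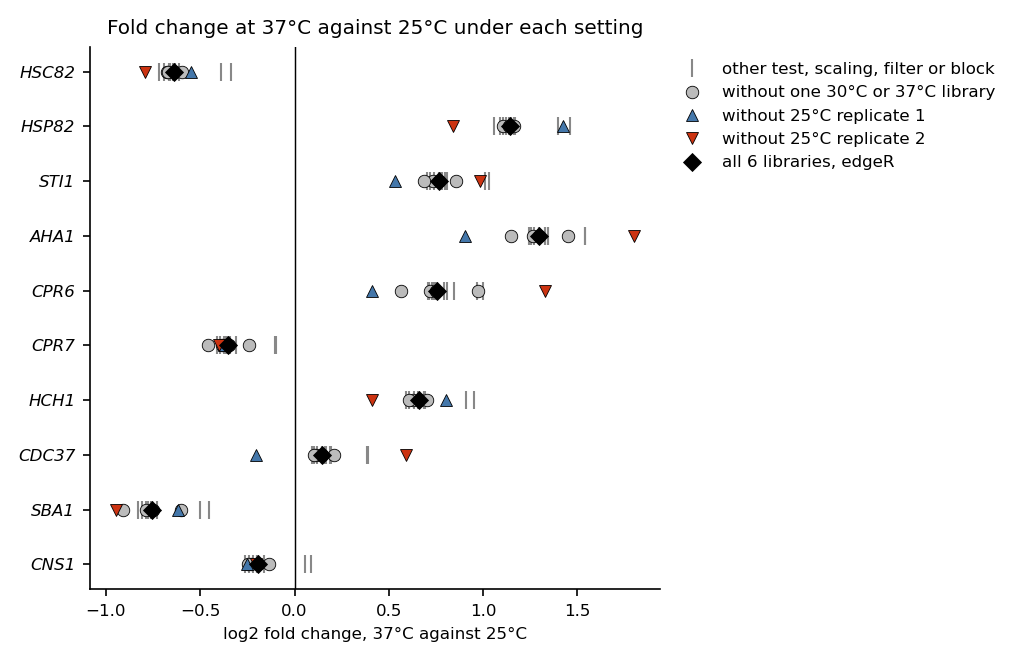
Log2 fold change at 37°C against 25°C of each gene under every setting (black diamond: all 6 libraries in edgeR, grey line: another test, scaling, filter or block, grey circle: without a 30°C or 37°C library, blue upward and red downward triangle: without the first and the second 25°C library). The values of CDC37 and CNS1 lie on both sides of 0, and AHA1 runs from 0.90 (upward triangle) to 1.80 (downward triangle).

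The 8 co-chaperone genes together received 4280 and 4259 CPM at 25°C, 3651 and 4489 at 30°C, then 4198 and 4211 at 37°C. Their mean sum at 37°C was 0.985 times that at 25°C, a log2 ratio of −0.022 that became 0.23 when libraries were scaled on their totals alone. SBA1 alone had a mean of 2430 CPM of the 4269 at 25°C and 1438 of the 4204 at 37°C. The sum thus joins genes that were lower at 37°C with genes that were higher. There were 0.614 to 0.789 co-chaperone counts per Hsp90 count at 25°C and 30°C and 0.686 and 0.679 at 37°C. Of 5 ratios between these genes that were computed, those of AHA1 to CDC37 and of STI1 to SBA1 are given with every library. There were 1.16 and 1.24 AHA1 counts per CDC37 count at 25°C, 0.95 and 1.23 at 30°C, then 2.31 and 3.06 at 37°C. STI1 counts per SBA1 count were 0.157 and 0.269 at 25°C, 0.309 and 0.198 at 30°C, then 0.508 and 0.705 at 37°C. In both ratios the 37°C libraries lay above the other 4. This restates the levels of the genes given above, and the share of other gene pairs that separate in this way was not computed. AHA1 counts per HCH1 count overlapped, with 1.48 to 3.61 at 25°C and 30°C and 3.59 and 4.14 at 37°C, while STI1 counts per AHA1 count were lower at 37°C, 1.16 and 1.06, than in the other 4 libraries, 1.43 to 1.95. These ratios are read only across libraries and not as levels of the genes against each other, because reads wholly in a 3′ UTR were not counted.

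Across the 6 libraries, log2 CPM of STI1 and AHA1 had a Pearson r of 0.994, and that of HSC82 and HSP82 an r of −0.863. A negative r was not particular to the Hsp90 genes, since HSC82 had −0.963 with STI1 and −0.953 with AHA1. These are descriptions over 6 points that share library scaling, the shallow first 25°C library and the step to 37°C. AHA1 was the gene with the second highest r to STI1 among all genes tested, after NGK1 (0.997), and STI1 was the highest for AHA1. The genes most like HSP82 were YNL115C (0.992), YPR145C-A (0.991) and IAI11 (0.988), and those most like HSC82 were RPS8B, a gene of the small ribosomal subunit (0.993), VMA10, of the vacuolar proton pump (0.990), and PAB1, the poly(A)-binding protein (0.984).

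Of 7 further Hsp90 co-chaperone genes, 6 were tested, TAH1 having too few counts. None was called at 37°C against 25°C (DESeq2 also 0), an unadjusted p below 0.05 was found for 0 on the higher and 2 on the lower side (7.53% and 6.02% of all genes), and the median log2FC was −0.089, which became 0.16 with libraries scaled on their totals alone. PPT1, the phosphatase that acts on Hsp90, had 39 and 68 counts in the 25°C libraries, 93 and 71 in those of 30°C and 55 and 45 in those of 37°C, with a log2FC of −1.51 (SE 0.52, edgeR adjusted p = 0.316). Its level in the shallow first 25°C library was the highest. The 2 genes at an unadjusted p below 0.05, PPT1 and RVB2, became 0 without that library or without the second 37°C library, and 1 (PPT1) without the first 37°C library or with a replicate block. Without the second 25°C library 2 of the list were called, in the fit that called 364 of 5326 genes. RVB2 and RVB1, the AAA+ ATPases of the R2TP complex, which works with Hsp90, had log2FC of −0.97 (SE 0.36) and −0.58 (SE 0.30).

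Of 8 genes of the Hsp70 system that hands clients to Hsp90, none was called (DESeq2 also 0), an unadjusted p below 0.05 was found for 2 on the higher and 1 on the lower side (7.53% and 6.02% of all genes), and the median was −0.18, or 0.060 on library totals alone. These became 0 and 0 without the first 37°C library, and 1 (SSA3) and 0 without the second or with a replicate block. In the fit without the second 25°C library, which called 364 of 5326 genes, 1 of the 8 was called. SSA3 and SSA4, the stress-inducible cytosolic Hsp70 genes, had log2FC of 1.25 (SE 0.38) and 1.27 (SE 0.46), and FES1, a nucleotide exchange factor of Hsp70, −0.85 (SE 0.33). No 50-base coding window of SSA3 or SSA4 was repeated in the genome, whereas 57.9% of those of SSA1 and 58.2% of those of SSA2 were, though 0 of 251 in the last 300 coding bases of either. Of 7 genes that regulate Hsp90 or encode clients, none was called (DESeq2 also 0), an unadjusted p below 0.05 was found for 1 on the higher and 0 on the lower side (7.53% and 6.02% of all genes), and the median was 0.14. On library totals alone these became 2 (HSF1 and SLT2) and 0, with a median of 0.39. SLT2, the kinase of the cell wall integrity pathway and a client of Hsp90, had 6 and 38 counts in the 25°C libraries, 80 and 31 in those of 30°C and 130 and 150 in those of 37°C, with a log2FC of 1.74 (SE 0.43, edgeR adjusted p = 0.238). HSF1, whose product drives chaperone genes, had a log2FC of 0.71 (SE 0.34) against 25°C and 0.72 (SE 0.32) against 30°C, and GCN2, a client kinase, −0.28 (SE 0.33). At 37°C against 30°C, SSA4 (1.09) and SLT2 (1.05) were the genes of these lists that were higher at an unadjusted p below 0.05 and SSA2 (−1.63) the 1 that was lower, beside 4.65% and 2.41% of all genes. None of these 3 was counted without the first 37°C library or with a replicate block, and SSA2, with 255 and 59 counts in the 30°C libraries, was not counted without the first of them. At 30°C against 25°C there was none.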

How the data were processed

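Total RNA of 6 cultures was sequenced by 3′-Tag-seq (QuantSeq). The authors deposited raw counts per gene on R64, and the submitters' processing notes list the aligner STAR (2.7.10a), the counter HTSeq (2.0.2), UMI-tools (1.0.1) and, for testing, DESeq2 (1.38.2). Whole reads could be recovered from the normalized signal that the authors deposited beside the counts. Of its values, times the size factor of the library, 100% lay within 0.001 of a whole number and 100% equalled the raw count. edgeR on these reads called 0 genes, which repeats the main fit and is no separate evidence. The strand setting is not given. UMI-tools is listed, but the sources used here do not say whether and how UMI removal and trimming were applied to total RNA. Of 6461 genes, 6458 were matched to the annotation. The 5 summary entries of the counter were kept out of all sizes and tests (reads in no gene 41.1% to 47.9% of a library, in more than 1 place 7.81% to 14.1%, ambiguous 0.0313% to 0.0559%).

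The quasi-likelihood F test of edgeR (4.0.16) was run on the 5181 genes that filterByExpr kept (TMM factors 0.883 to 1.12, biological coefficient of variation 0.323), on the 6 libraries in 1 fit with temperature as the factor and Benjamini-Hochberg adjustment over all genes. Calls needed both an adjusted p under 0.05 and an absolute log2FC over 1. The SE is the unshrunk coefficient over the square root of F, and the 95% interval uses a t quantile. Without the prior count that draws the printed log2FC toward 0, the interval is not centred on it exactly. CPM were computed with TMM factors and correlations from log2 CPM with a prior count of 2. Shares of HSP82 have exact (Clopper-Pearson) intervals. These cover counting error only, and would be too narrow if PCR copies were not removed by molecular identifiers. The scripts were tested on simulated counts.

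The 10 genes and the lists were chosen with earlier results of these data known. Of each list, the 3 genes with the smallest unadjusted p at 37°C against 25°C are named, with HSF1. SSA4, SLT2 and SSA2 at 37°C against 30°C, the genes most like STI1 and AHA1, the repeated windows of the SSA genes, the promoter window of 500 bases and the TTCTAGAA matches shown were chosen after the values or sequences were seen. Sequences come from the R64 genome of RefSeq. Alternatives were DESeq2 1.42.0, limma-voom (limma 3.58.1), other scalings and filters, fits of 2 temperatures, a replicate block and leaving out each library. The recovered reads, a crossed block, the counts at an unadjusted p and the lists under each setting were added after seeing the data. The ratios between the genes were not among the planned results. Fits were run in R (4.3.3), shares and sequence searches in Python (3.11.15) with scipy (1.17.1), tables with pandas (2.3.3) and numpy (2.4.6), and plots with matplotlib (3.10.9).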

Additional observations from a re-analysis of the deposited data

How the results depend on the processing

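The 17 alternative settings include the recovered reads, which equal the counts of the main fit and so could not change a value. The 510 values of the 10 genes under these settings and 3 comparisons were compared with the main fit by sign and by call. A log2FC that crossed 1 without a change of call was not counted. At 37°C against 25°C, HSP82 was 0.84 without the second 25°C replicate, and STI1 1.03 with at least 10 counts in every library. CPR6, CPR7 and HCH1 had no DESeq2 adjusted p there and were taken as not called. By this rule 477 kept direction and call, 32 changed sign (21 of them at 30°C against 25°C), and 1 became called. That was AHA1 at 37°C against 25°C without the second 25°C replicate (log2FC 1.80, edgeR adjusted p = 0.0459), where 25°C is represented by the shallow library only, so that the number of the 10 genes called ran from 0 to 1 over leaving out each library. Scaled on library totals alone, the summed Hsp90 level had a log2 ratio of 0.27 (37°C against 25°C) and 0.30 (37°C against 30°C) and the summed co-chaperone level 0.23 and 0.27, and the latter was −0.071 against 25°C on the authors' normalized values. That scaling moved the median of all genes from 0.088 to 0.33 and from −0.012 to 0.23.

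Signs changed as follows. At 37°C against 25°C, CNS1 was 0.053 on library totals and 0.087 among genes with at least 10 counts in every library, and CDC37 ran from −0.20 to 0.59 over leaving out each library. At 37°C against 30°C, CDC37 was 0.11 and CNS1 0.18 on library totals, CNS1 was 0.026 with upper quartile factors and 0.078 with at least 10 counts, and over leaving out each library CPR6 ran from −0.043 to 0.69, CDC37 from −0.30 to 0.010 and CNS1 from −0.30 to 0.23. At 30°C against 25°C, HSP82 was −0.023 in DESeq2, −0.030 in limma-voom, −0.049 with DESeq2 size factors in edgeR and −0.037 with upper quartile factors. STI1 was −0.014 in DESeq2, −0.025 with DESeq2 size factors and −0.022 with upper quartile factors, and with at least 10 counts HSC82 was 0.14 and CNS1 0.0089. Over leaving out each library, that comparison ran from −0.17 to 0.067 for HSC82, −0.25 to 0.33 for HSP82, −0.18 to 0.27 for STI1, −0.23 to 0.67 for AHA1, −0.064 to 0.29 for CPR7, −0.32 to 0.50 for HCH1, −0.020 to 0.78 for CDC37, −0.56 to 0.080 for SBA1 and −0.42 to 0.074 for CNS1. The cause of these changes was not tested.

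Over leaving out each library, the difference in HSP82 share ran from 26.1 to 30.4 percentage points against 25°C and from 23.6 to 30.5 against 30°C. With a replicate block, 0 of the 10 genes were called, and of the genes at an unadjusted p below 0.05 AHA1 alone was counted. Of all genes, 5.02% were higher at that p against 25°C and 2.72% against 30°C. The replicate numbers share no stated origin, and over 5181 genes the replicate differences correlated at r = 0.278 between 37°C and 25°C, −0.401 between 37°C and 30°C and −0.534 between 30°C and 25°C. With the 30°C numbers crossed, 0 of the 10 and 10 of all genes were called at 37°C against 25°C. Depth limits CPR6, CPR7 and HCH1 most, with 12, 18 and 25 counts in the first 25°C library.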
